A study of Homo sapiens with 6 samples.

Results

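The genes described here are 10 regulators of mRNA decay, chosen by symbol from the 26255 genes in the FPKM tables of 22RV1 cells: ZFP36, ZFP36L1, ZFP36L2, ELAVL1, BTG1, BTG3, TOB1, TOB2, CNOT1 and CNOT7. 22RV1 is a human castration-resistant prostate cancer cell line. RNA was sequenced from 3 samples treated with DMSO, the vehicle, and from 3 samples treated with 10 nM bruceantin (BCT), a quassinoid known as an inhibitor of protein synthesis, in every case for 24 h. All cells grew in full medium, RPMI with fetal bovine serum. The experiment rests on 1 cell line, and no label states that the 3 samples of a group were separate cultures, so the p-values measure the spread between these samples, which may be technical.

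An mRNA is usually destroyed in steps: its poly(A) tail is shortened, its cap is removed, and exonucleases then degrade the body from either end. Tristetraprolin (TTP, encoded by ZFP36) and its relatives bind AU-rich elements in 3' UTRs and bring in CCR4-NOT, the main deadenylase complex, whereas HuR (ELAVL1) binds similar elements and is known for stabilising its targets. The BTG/TOB proteins are antiproliferative factors that bind the deadenylase subunit CNOT7, and ZFP36, BTG2 and many early-response genes are themselves encoded by short-lived mRNAs.

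The TTP proteins recognise the letters UAUUUAU in RNA, written TATTTAT in the genome. This heptamer of 7 letters was looked for on the mRNA strand only, overlaps allowed, in the 3' UTR of each gene's MANE Select transcript (GENCODE 44 lifted to GRCh37); every match also holds the pentamer ATTTA. Windows of 30 bases are given for each member with a heptamer except CNOT7, and for their relative BTG2. The CNOT7 window is not shown. The windows show how the densest stretch of heptamers differed between these genes. They are written 5' to 3' on the mRNA strand, with heptamers in capitals.
ZFP36 (chr19:39899828-39899857, plus strand): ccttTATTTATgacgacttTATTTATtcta
ZFP36L1 (chr14:69255053-69255082, minus strand): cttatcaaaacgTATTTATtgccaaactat
ZFP36L2 (chr2:43450587-43450616, minus strand): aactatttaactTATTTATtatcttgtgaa
ELAVL1 (chr19:8026723-8026752, minus strand): tTATTTATaccTATTTATgTATTTATTTAT
BTG1 (chr12:92534546-92534575, minus strand): gaatagatttctTATTTATctgaaggtata
BTG3 (chr21:18966149-18966178, minus strand): attggacttgagTATTTATatattgtgcat
TOB2 (chr22:41831384-41831413, minus strand): gtcgcaagtcctTATTTATatgtgaggctg
BTG2 (chr1:203276655-203276684, plus strand): taaatgaagagcTATTTATatatattattt

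The ZFP36 window held 2 separate heptamers and began 489 bases after the stop codon. The ELAVL1 window held 4, of which the last 2 overlap, whereas the windows of ZFP36L1, ZFP36L2, BTG1, BTG3, TOB2 and BTG2 each held 1. Over whole 3' UTRs, ELAVL1 had 5 heptamers in 4910 bases, ZFP36 had 3 in 708, ZFP36L1 had 3 in 1871, ZFP36L2 had 3 in 1917 and BTG3 had 2 in 440. BTG1, TOB2 and CNOT7 had 1 each, in 3802, 2817 and 5754 bases, and BTG2 had 1 in 2164. TOB1 and CNOT1 had none in 757 and 1007 bases. At least 1 heptamer was thus present in 8 of the 10 members, against 36.1% of the 10939 tested genes with a complete 3' UTR in this annotation, and 3 or more in 4 of the 10 members, against 7.14%. Members with long 3' UTRs have more room for a match, and the median length over those 10939 genes was 1323 bases. A match describes the sequence and is not a measured binding site.

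**Figure D1:**
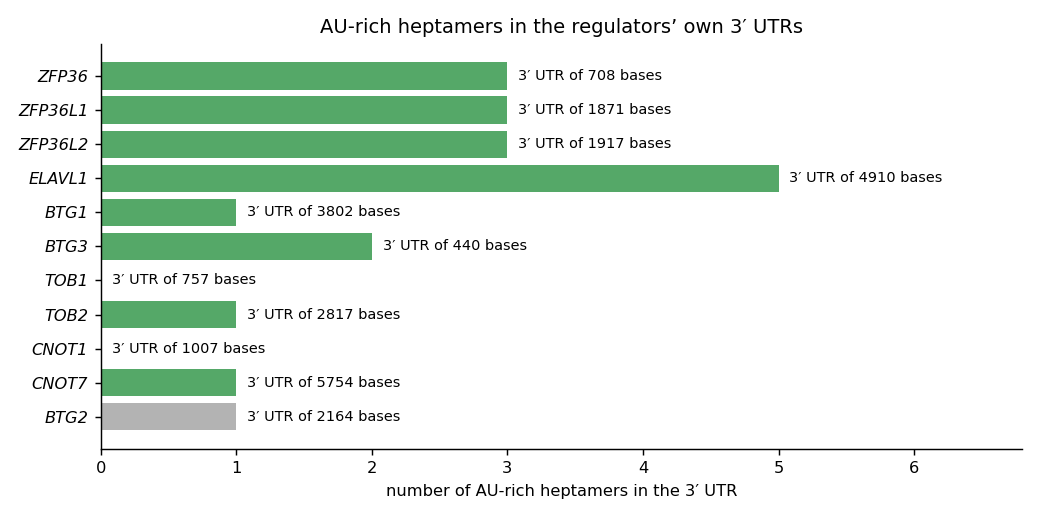
Heptamers TATTTAT per 3' UTR (horizontal axis, number of matches) for the 10 members (green bars) and BTG2 (grey bar), with the length of the 3' UTR in bases beside each bar. ELAVL1 has 5, the 3 TTP family genes have 3 each, and TOB1 and CNOT1 have none.

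Expression was measured as FPKM, a fragment number divided by transcript length and by the mapped total of the sample, so levels of different genes can be set side by side. Fold changes were taken on log2(FPKM + 0.1), a scale that understates changes of low genes, and tested with limma for the 12729 genes that averaged 1 FPKM or more over all 6 samples, with Benjamini-Hochberg adjustment. A gene was called higher or lower in BCT-treated cells where the log2 fold change exceeded 0.85 in size with an FDR under 0.05. All 10 members passed the filter on low values. No read numbers can be read from FPKM, so the reads behind each value are unknown. Relative depth, read from the spacing of low values, was 0.878 to 1 in the DMSO samples and 1.05 to 1.13 in the BCT samples. The sum of all FPKM values ran from 1169649 to 1572321 in DMSO samples but only from 757534 to 799838 in BCT samples, of which the single gene MIR6087 took 43.5% to 55.3% and 31.7% to 32.5%. The values were used as deposited. Rescaling every sample to the same sum moved the median change over the whole table from -0.038 to 0.72, so members with small decreases change sign under that scaling, as given for each. The luminal epithelial markers KRT8, KRT18, HOXB13, FOLH1, EPCAM and KLK3 were present in every sample, KLK3 at 8.03 to 9.76 FPKM under DMSO and 0.863 to 1.32 FPKM under BCT. The basal, endothelial and leukocyte markers and 2 of the 3 fibroblast markers stayed at or below 0.387 FPKM. The exception was COL1A1, at 1.23 to 1.55 FPKM under DMSO and 5.04 to 6.31 FPKM under BCT. The part of this gene and of KLK3 in the results was not tested.

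Among the members, ZFP36 and BTG1 rose in BCT-treated cells, by 4.70-fold and 1.86-fold of the group means, and the other 8 were not called. Thus 2 of the 10 were called higher, against 13.9% of all genes tested, and 0 were called lower, against 17.8%. The FDR alone was passed by 7 members, 5 with higher and 2 with lower values, against 82.1% of all genes, and the 6 samples fell into non-overlapping groups for the same 7 members, against 85.3% of all genes. These last shares are near the background and say little about the members. The median log2 fold change of the members was 0.17, against -0.038 over all genes tested. In bulk RNA, fewer cells of a type and less RNA per cell cannot be told apart, and an mRNA level does not separate synthesis from decay.

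**Figure D2:**
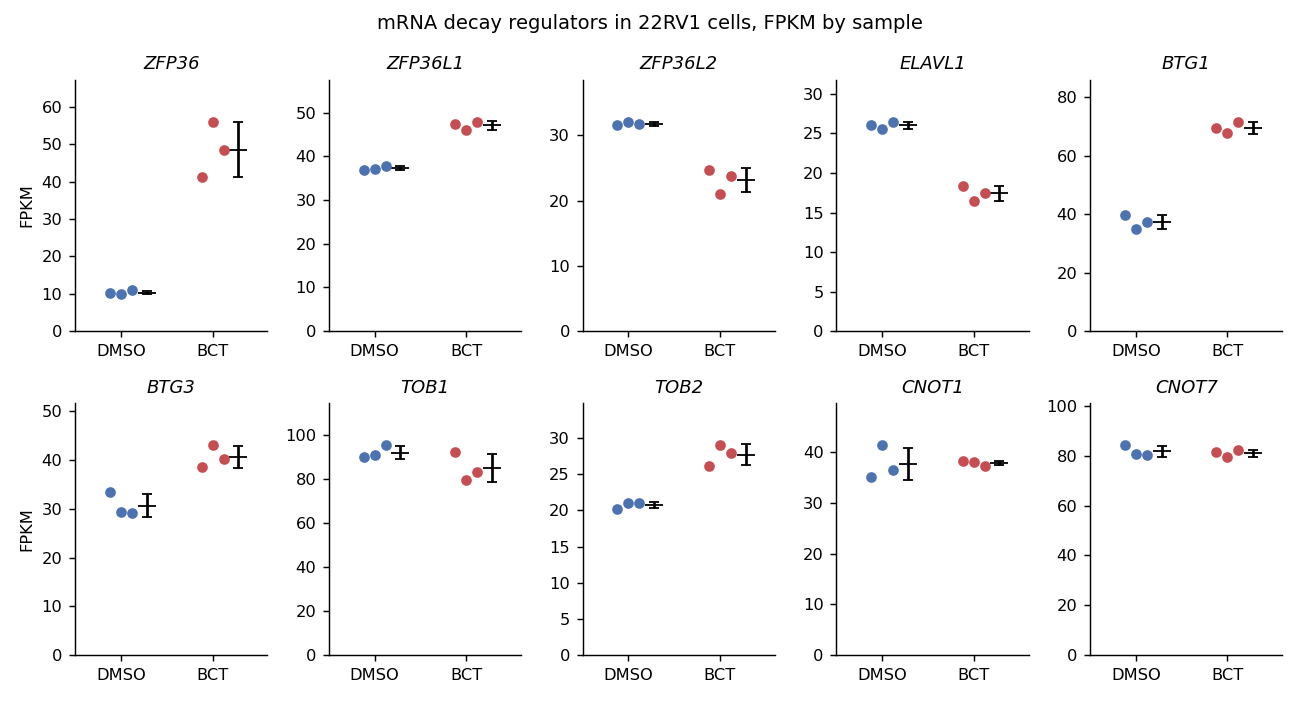
FPKM of each member (vertical axes, one panel per gene, starting at 0) in the 3 DMSO and 3 BCT samples, with points for samples and bars for the group mean and SD. ZFP36 is at 9.96 to 10.9 with DMSO and 41.3 to 56.0 with BCT, whereas the DMSO and BCT samples overlap for TOB1, CNOT1 and CNOT7.

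ZFP36 encodes TTP, which binds AU-rich elements and promotes decay of the mRNAs that carry them. The gene lies at chr19:39897487-39900052 on the plus strand (hg19, as for all positions here). It stood at 10.2, 9.96 and 10.9 FPKM in the DMSO samples and at 41.3, 56.0 and 48.3 FPKM in the BCT samples. Every BCT sample was thus several times above every DMSO sample. The means were 10.3 ± 0.492 and 48.6 ± 7.34 FPKM (SD, n = 3 each), and the log2 fold change was 2.21 with an SE of 0.103 (95% interval 1.97 to 2.45; limma, adjusted p = 7.98e-07). ZFP36 ranked 203 of the 12729 genes by log2 fold change, counted from the highest. It went from the lowest of the 10 members with DMSO to the fourth highest with BCT.

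ZFP36L1 and ZFP36L2, the other members of the TTP family expressed here, bind the same kind of element. ZFP36L1, at chr14:69254372-69262960 on the minus strand, stood at 36.9, 37.2 and 37.9 FPKM under DMSO and at 47.4, 46.0 and 47.9 FPKM under BCT. Its log2 fold change was 0.33 with an SE of 0.0452 (limma, adjusted p = 0.000152), which was under the fold threshold although the groups did not overlap. ZFP36L2, at chr2:43449541-43453745 on the minus strand, stood at 31.5, 32.1 and 31.7 FPKM under DMSO and at 24.7, 21.0 and 23.8 FPKM under BCT. All BCT samples lay below all DMSO samples. The log2 fold change of ZFP36L2 was -0.46 with an SE of 0.0657 (95% interval -0.61 to -0.31; limma, adjusted p = 0.000221) and it became 0.31 when samples were rescaled to equal FPKM sums, which is -0.41 relative to the median gene there.

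Shares within the family do not depend on a scale factor per sample. The summed FPKM of the 3 TTP family genes was 78.6, 79.2 and 80.5 with DMSO and 113.4, 123.0 and 120.1 with BCT. ZFP36 held 12.9%, 12.6% and 13.5% of that sum in the DMSO samples and 36.5%, 45.5% and 40.2% in the BCT samples. ZFP36 thus moved from the smallest share to one that overlapped the share of ZFP36L1, which went from 47.0% ± 0.0784 to 39.7% ± 2.23 (SD, n = 3 each). ZFP36L2 went from 40.0% ± 0.568 to 19.6% ± 2.33. For each of these 3 shares the groups did not overlap, and the two-sided exact permutation p was 0.1, the smallest that 3 samples against 3 can give. The plot of shares shows all 6 samples.

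**Figure D3:**
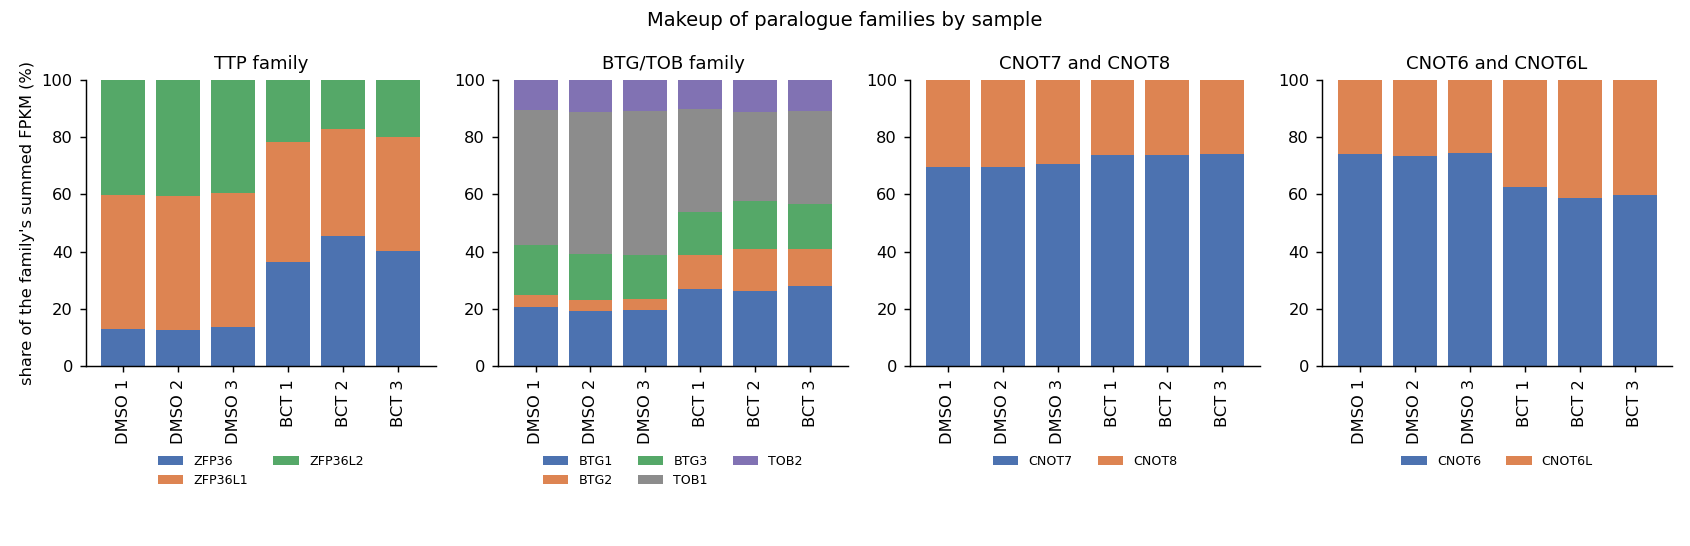
Stacked bars, 1 per sample, give each gene's share of the summed FPKM (vertical axes, percent) of the TTP family, the BTG/TOB family, CNOT7 with CNOT8, and CNOT6 with CNOT6L, in panels from left to right. ZFP36 held 12.6% to 13.5% of its family with DMSO and 36.5% to 45.5% with BCT, and BTG2 went from 3.92% to 4.0% up to 12.0% to 14.4% of its family, from which the near-absent BTG4 is omitted.

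ELAVL1 encodes HuR, a protein known to bind AU-rich and U-rich 3' UTRs and to stabilise them, and it lies at chr19:8023457-8070529 on the minus strand. It stood at 26.0, 25.6 and 26.5 FPKM in the DMSO samples and at 18.3, 16.5 and 17.4 FPKM in the BCT samples. All BCT samples lay below all DMSO samples. The log2 fold change was -0.58 with an SE of 0.0553 (95% interval -0.70 to -0.45; limma, adjusted p = 1.87e-05), under the fold threshold, and it was 0.19 with samples rescaled to equal FPKM sums, -0.53 relative to the median gene. The ratio of ZFP36 to ELAVL1 FPKM, chosen after these values were seen, was 0.390, 0.389 and 0.411 with DMSO and 2.25, 3.39 and 2.77 with BCT. ZFP36 mRNA was therefore below ELAVL1 mRNA in each DMSO sample and above it in each BCT sample.

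The BTG/TOB proteins slow proliferation and link CCR4-NOT to target mRNAs and to poly(A) binding protein. BTG1 stood at 39.6, 35.1 and 37.2 FPKM in the DMSO samples and at 69.4, 67.6 and 71.6 FPKM in the BCT samples. Its lowest BCT sample was far above its highest DMSO sample. The log2 fold change was 0.90 with an SE of 0.0579 (limma, adjusted p = 2.44e-06), and the 95% interval of 0.77 to 1.03 included the fold threshold of 0.85. The interval listed for BTG1, chr12:92378752-92539673 on the minus strand, also holds C12orf79, which was listed at 0.057 to 0.304 FPKM. Across all genes tested, 86.9% had a log2 fold change at or below that of BTG1.

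BTG3 and TOB2 had higher values with BCT but were not called. BTG3, at chr21:18965968-18985268 on the minus strand, stood at 33.4, 29.4 and 29.2 FPKM under DMSO and at 38.6, 43.0 and 40.2 FPKM under BCT, a log2 fold change of 0.41 (SE 0.0694; limma, adjusted p = 0.00062). TOB2, at chr22:41829492-41843027 on the minus strand, stood at 20.2, 21.0 and 21.1 FPKM under DMSO and at 26.1, 29.004 and 28.0 FPKM under BCT, a log2 fold change of 0.41 (SE 0.0555; limma, adjusted p = 0.000147). The groups overlapped for neither gene, and each mean was 1.33 times higher with BCT.

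TOB1, the closest relative of TOB2, was the most abundant of the 10 members. It stood at 89.9, 90.8 and 95.4 FPKM under DMSO and at 92.2, 79.7 and 83.3 FPKM under BCT. The first BCT sample lay inside the range of the DMSO samples, so the groups overlapped. The log2 fold change was -0.12 (95% interval -0.26 to 0.03; limma, adjusted p = 0.121), and its sign changed to 0.65 with equal FPKM sums, to 0.27 with equal sums without MIR6087 and to 0.051 with quantile normalization. The antisense gene TOB1-AS1 shares the interval of TOB1, chr17:48939587-48945732, and was listed at 1.0 to 1.51 FPKM. The kit does not mark the strand, so reads in the shared bases cannot be told apart by strand, and how they were assigned is not stated.

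BTG2, a p53 target of the same family that was not among the 10, stood at 7.47, 7.34 and 7.50 FPKM under DMSO and at 30.9, 36.998 and 33.3 FPKM under BCT. It rose with a log2 fold change of 2.16 (SE 0.0703; limma, adjusted p = 2.76e-07), the value nearest to that of ZFP36 in either family. BTG4, a family member known from oocytes, was listed at 0 in all DMSO samples and was not tested. In shares of the summed family FPKM, TOB1 went from 48.9% ± 1.55 to 33.1% ± 2.43, BTG1 from 19.8% ± 0.878 to 27.1% ± 0.782 and BTG2 from 3.95% ± 0.0403 to 13.1% ± 1.22 (SD, n = 3 each). For these 3 the groups did not overlap and the two-sided exact permutation p was 0.1, the smallest possible. The shares of BTG3, 16.3% and 15.8%, and of TOB2, 11.0% and 10.8%, overlapped between groups (exact permutation p = 0.6 for each).

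CNOT1 is the scaffold of CCR4-NOT and CNOT7 is a catalytic deadenylase subunit that BTG and TOB proteins bind. CNOT1, at chr16:58549383-58663790 on the minus strand, stood at 35.2, 41.3 and 36.5 FPKM under DMSO and at 38.2, 38.1 and 37.3 FPKM under BCT. CNOT7, at chr8:17086740-17104387 on the minus strand, stood at 84.2, 80.8 and 80.4 FPKM under DMSO and at 81.7, 79.5 and 82.2 FPKM under BCT. The groups overlapped for both genes. The log2 fold change of CNOT1 was 0.01 (95% interval -0.14 to 0.16; limma, adjusted p = 0.888) and that of CNOT7 was -0.01 (95% interval -0.12 to 0.09; limma, adjusted p = 0.812), and the intervals give the range of change that these samples allow. With equal FPKM sums the values were 0.78 for CNOT1 and 0.76 for CNOT7, or 0.058 and 0.036 relative to the median gene there. SETD6, at 6.03 to 8.52 FPKM, and 2 small RNA genes are listed with the same interval as CNOT1, so it is not the extent of CNOT1 alone. The GENCODE 3' UTR of CNOT7 extends beyond the interval that the files list.

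**Figure D4:**
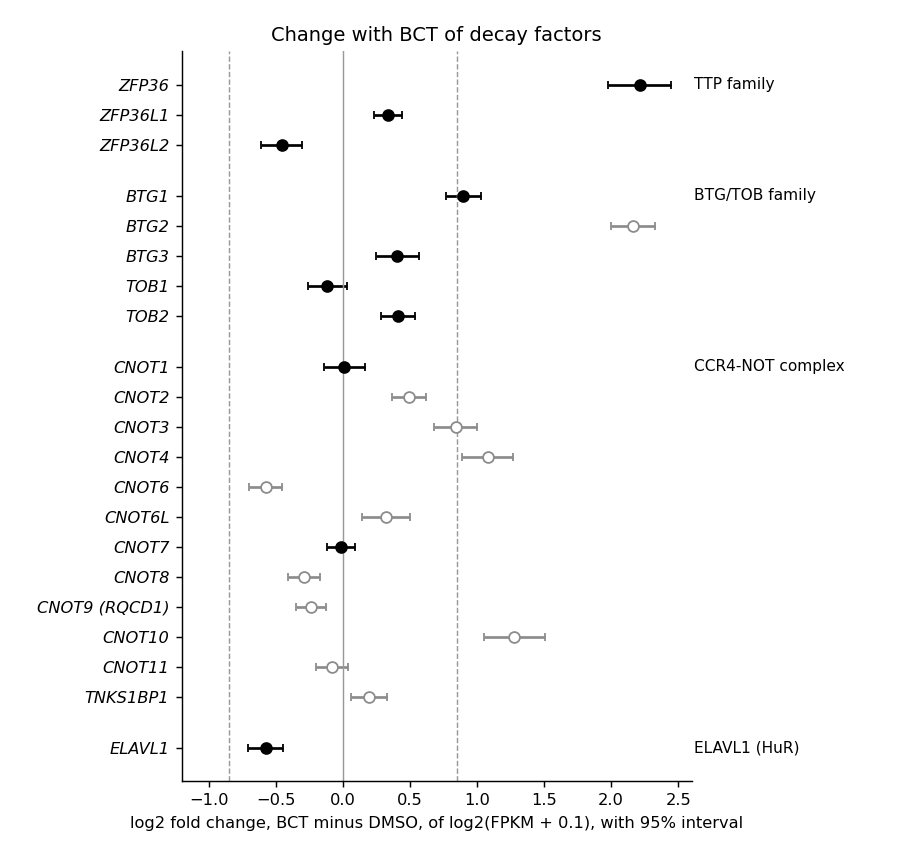
Log2 fold change, BCT against DMSO, with 95% intervals (horizontal axis, deposited scaling) for the 10 members (filled black points) and for related genes (open grey points); dashed lines mark the fold threshold of 0.85 in either direction. ZFP36 at 2.21 and BTG2 at 2.16 stand apart, BTG1 at 0.90 has an interval that crosses the line, and CNOT1 and CNOT7 lie at 0.01 and -0.01.

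The order of the levels changed around the TTP and BTG genes. With DMSO the means ran from TOB1 (92.0 FPKM) and CNOT7 (81.8 FPKM) through CNOT1, ZFP36L1 and BTG1 (37.7, 37.3 and 37.3 FPKM), ZFP36L2 and BTG3 (31.8 and 30.7 FPKM), ELAVL1 (26.0 FPKM) and TOB2 (20.8 FPKM) to ZFP36 (10.3 FPKM). The sample ranges overlapped between CNOT1 and ZFP36L1, between ZFP36L1 and BTG1, and between ZFP36L2 and BTG3, so these neighbours are not ordered. With BCT the order was TOB1 (85.1 FPKM), CNOT7 (81.1 FPKM), BTG1 (69.5 FPKM), ZFP36 (48.6 FPKM), ZFP36L1 (47.1 FPKM), BTG3 (40.6 FPKM), CNOT1 (37.8 FPKM), TOB2 (27.7 FPKM), ZFP36L2 (23.2 FPKM) and ELAVL1 (17.4 FPKM). There the ranges of TOB1 and CNOT7 and those of ZFP36 and ZFP36L1 overlapped.

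Of the 12 CCR4-NOT subunits tested, CNOT1 and CNOT7 included, 2 were called higher and 0 lower, against 13.9% and 17.8% of all genes, with a median log2 fold change of 0.10. The share called higher is near that background. At the FDR alone 6 subunits had higher and 3 had lower values, against 82.1% of all genes in either direction. With equal FPKM sums 6 were called higher and 0 lower, against 5614 and 668 of the 12729 genes tested. These counts say little about the complex. CNOT10 went from 18.0, 18.4 and 17.3 FPKM to 36.8, 48.1 and 46.7 FPKM (log2 fold change 1.28; limma, adjusted p = 5.73e-06). CNOT4, an E3 ubiquitin ligase associated with the complex, went from 9.76, 10.0 and 9.77 FPKM to 18.3, 22.3 and 22.4 FPKM (log2 fold change 1.08; limma, adjusted p = 5.35e-06). Neither protein is a deadenylase. Among the catalytic paralogues, CNOT8 stood at 36.997, 35.2 and 33.6 FPKM under DMSO and 29.1, 28.4 and 28.9 FPKM under BCT, a log2 fold change of -0.29 that became 0.48 with equal FPKM sums. CNOT6 stood at 16.6, 16.9 and 16.6 FPKM under DMSO and 11.1, 10.8 and 11.7 FPKM under BCT, a log2 fold change of -0.58 that became 0.19 with equal sums, whereas CNOT6L had a log2 fold change of 0.32 that became 1.08, past the threshold, with equal sums. None of these 3 was called with the deposited scaling. The median over all genes was 0.72 with equal sums, so CNOT8 and CNOT6 stayed below the median gene there. CNOT6 made up 73.9% ± 0.487 of the summed FPKM of CNOT6 and CNOT6L with DMSO and 60.2% ± 2.04 with BCT, and CNOT7 made up 69.9% ± 0.548 and 73.8% ± 0.134 of that of CNOT7 and CNOT8 (SD, n = 3 each). The groups did not overlap for either share (exact permutation p = 0.1, the smallest possible).

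The other steps of the pathway were compared through lists of genes, whose counts are to be read against the 13.9% called higher and 17.8% called lower over all genes, and in each of which more genes were called higher with equal FPKM sums. Of the 8 genes tested on the list of other deadenylases, NOCT alone was called, and the median was 0.27. NOCT went from 3.58, 3.94 and 4.19 FPKM to 7.95, 10.9 and 9.13 FPKM (log2 fold change 1.22, limma, adjusted p = 1.73e-05). Whether NOCT or the other listed genes act as deadenylases in these cells was not tested. Of the 15 other 3' UTR binding regulators tested, 2 were called higher and 0 lower, a share near that of all genes, with a median of 0.19. At the FDR alone 9 had higher and 5 had lower values, against 82.1% of all genes in either direction, so these counts say little about the list. With equal sums 9 were called higher. Those called were ZC3H12C, with a log2 fold change of 1.67, and ZC3H12A (Regnase-1, an endonuclease of inflammatory mRNAs), with 1.05, both low genes at no more than 5.78 and 1.55 FPKM in any sample. ZC3H12A averaged 0.673 FPKM under DMSO and passed the filter only through its BCT samples, so its call is no support for the list. ELAVL1 is also on this list. Leaving out 1 BCT sample moved the count called higher from 2 to 4 (without the first) or to 1 (without the second or without the third), and the count of other deadenylases called higher was 2 without the first BCT sample.

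Of the 6 genes for poly(A) binding proteins and their regulators, 0 were called higher and 2 lower, with a median of -0.34. With equal FPKM sums 2 were called higher and 0 lower, and without MIR6087 in the sums 1 and 1, so the calls on this list depend on the scaling. The median over all genes was itself 0.72 with equal sums. PABPC1, the main cytoplasmic poly(A) binding protein, went from 402.7, 390.9 and 398.0 FPKM to 175.3, 184.2 and 179.9 FPKM (log2 fold change -1.14; limma, adjusted p = 4.50e-07), and it was -0.37 with equal FPKM sums and -0.77 with quantile normalization, where it was not called. PAIP2B, an inhibitor of poly(A) binding protein, had a log2 fold change of -1.39, which was -0.64 with equal sums. PABPC1 and PAIP2B thus stayed below the median gene with equal sums.

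Of the 19 genes for decapping and 5' to 3' decay, 4 were called higher and 2 lower, with a median of 0.22. With equal FPKM sums 10 were called higher and 0 lower, where 5614 of all 12729 genes were called higher and 668 lower. The median over all genes was 0.72 with that scaling. The decapping activators DCP1B and DCP1A rose with log2 fold changes of 1.25 and 1.17, whereas DCP2, the decapping enzyme itself, went from 9.44, 9.94 and 9.43 FPKM to 4.71, 4.18 and 4.66 FPKM (log2 fold change -1.07; limma, adjusted p = 2.27e-06), which was -0.32 and not called with equal FPKM sums. LSM4, a subunit of the Lsm ring that also takes part in splicing, had a log2 fold change of -1.24, and -0.47 with equal sums. Of the 16 genes of the RNA exosome and SKI complex, 4 were called higher and 1 lower, with a median of 0.32, and with equal sums 11 and 0. EXOSC9 and EXOSC10 each rose by 1.0 on the log2 scale, HBS1L rose by 0.99, and EXOSC5 had a log2 fold change of -1.13, which was -0.36 with equal sums. Of the 119 genes on all lists, 105 were tested, of which 30 were called higher and 8 lower, and 14 of the 30 belong to the early-response list.

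Many early-response mRNAs are textbook targets of TTP and HuR. Of a list of 31 early-response mRNAs known to carry AU-rich elements, 21 were tested. Of these, 14 were called higher and 3 lower, against 13.9% and 17.8% of all genes. The median log2 fold change was 1.68, against -0.038 over all genes tested. The list was chosen with earlier results of these data known, so its counts and median are no independent evidence. CXCL8, BIRC3, LIF and FOSB, 4 of the 14, averaged under 1 FPKM under DMSO and passed the filter only through their BCT samples, so they could be tested only because they were high there. These 4 also count in the median of 1.68. With a mean of at least 5 FPKM, 10 were called higher and 3 lower. That mean again pooled both groups, so the stricter filter does not remove this kind of selection. FOS averaged 3.43 FPKM under DMSO and 73.0 FPKM under BCT, and it passed only through its BCT samples. PIM1 averaged 8.79 FPKM under DMSO and 2.81 FPKM under BCT, and it passed only through its DMSO samples. FOS, a subunit of AP-1, went from 3.32, 3.71 and 3.26 FPKM to 55.3, 94.4 and 69.2 FPKM (log2 fold change 4.34; limma, adjusted p = 4.29e-07). JUN, its partner, went from 20.6, 19.4 and 20.2 FPKM to 195.5, 262.2 and 230.0 FPKM (log2 fold change 3.50; limma, adjusted p = 1.59e-07). EGR1, an immediate early transcription factor, had a log2 fold change of 4.23. The chemokine CXCL8 stood at 0.033, 0.055 and 0.056 FPKM under DMSO and at 1.38, 3.01 and 2.18 FPKM under BCT, and its log2 fold change of 3.89 is set largely by the 0.1 added to a value near 0. The 3 that fell were MYC, with a log2 fold change of -2.18, PIM1, with -1.61, and SLC2A1, with -1.32, each named after its value was seen. A heptamer TATTTAT was present in 17 of the 21, against 36.1% of the 10939 tested genes with a complete 3' UTR. The list was drawn from mRNAs known to carry AU-rich elements, so this count follows from the choice of genes. The list moved in both directions.

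**Figure D5:**
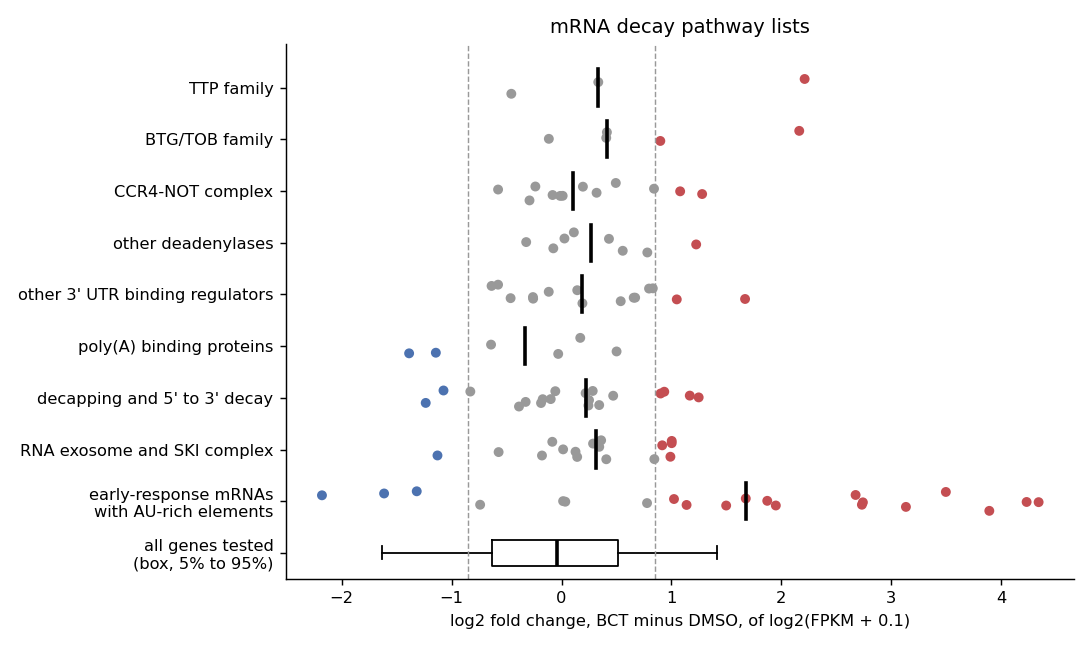
Log2 fold change, BCT against DMSO (horizontal axis, deposited scaling), of every tested gene of the 9 lists, red where called higher, blue where called lower and grey where not called, with a black bar at each list's median, dashed lines at the fold threshold and a box for all genes tested (whiskers at the 5th and 95th percentiles). The early-response mRNAs have a median of 1.68, and the other lists have medians between -0.34 and 0.41. The lists were chosen with earlier results of these data known.

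The genes nearest to the 2 called members were found by the Euclidean distance over the 6 samples, with each gene's log2 values taken relative to its DMSO mean. For ZFP36 they were DNAJB2, a co-chaperone (distance 0.131), TTC25 (0.136) and LOC101927391 (0.165). TTC25 stood at 0.638, 0.707 and 0.708 FPKM under DMSO and at 2.89, 4.21 and 3.55 FPKM under BCT. It passed the filter on low values only through its BCT samples. DNAJB2 stood at 20.9, 20.6 and 20.5 FPKM under DMSO and at 83.6, 107.4 and 93.3 FPKM under BCT, so its second BCT sample was the highest, as for ZFP36. For BTG1 they were C8orf33 (distance 0.0789), EGLN1, an oxygen-sensing prolyl hydroxylase (0.0960), and FBXL5, an iron-sensing ubiquitin ligase subunit (0.101). C8orf33 stood at 51.2, 45.2 and 48.7 FPKM under DMSO and at 93.4, 90.4 and 90.7 FPKM under BCT, and like BTG1 it was lowest in the second DMSO sample. These genes were found among 12729 by their closeness over the same 6 samples, so a like order of samples follows from that choice. They also share the 6 libraries with the members.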

How the data were processed

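RNA was prepared with a poly(A)-selecting kit that does not mark the strand. The authors trimmed reads with Trimmomatic 0.38 and aligned them to hg19/GRCh37 with HISAT2. The submitters' processing notes name HTSeq and the study's methods name StringTie, so the tool that made the values is not settled here, and the gene annotation is not given in the sources used here. The deposited values are FPKM per gene and sample, 1 file per sample, normalized by the authors for length and mapped fragments, and FPKM holds no counts, so no count test was run. BTG1, BTG3, TOB2, CNOT7 and PABPC1 have processed pseudogenes, and how shared reads were assigned is not stated, so their levels carry that uncertainty.

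Samples were grouped by their labels. Values were set on the log2(FPKM + 0.1) scale, genes averaging under 1 FPKM were dropped, and the rest were tested with limma 3.58.1 (eBayes with a mean-variance trend, R 4.3.3) with Benjamini-Hochberg adjustment. Shares were compared by exact two-sided permutation tests. On simulated data with the spread of these samples, 198 of 200 genes given a log2 change of 1.5 were called, and 0 of 12529 unchanged genes. Unchanged genes were simulated at a change of 0 with that spread, so the fold threshold left little room for a false call. That 0 is therefore no error rate for these data. Changes near the threshold of 0.85, as for BTG1, and differences in scaling between samples were not simulated. Across genes, pairs of DMSO samples correlated at 0.967 to 0.972, pairs of BCT samples at 0.959 to 0.966, and pairs across groups at 0.851 to 0.896.

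The members and the lists were chosen with earlier results of these data known, so no list is independent evidence. Named genes are the members, their paralogues, up to 4 called genes with the largest change in each list, and for ZFP36 and BTG1, the called members with the highest and lowest change, the 3 nearest genes. Beyond this rule, the cell type markers and the genes in shared intervals are named, and so are MYC, PIM1, SLC2A1, BIRC3, LIF and FOSB, chosen after their values were seen. Of the luminal markers, 1 is not reported here. Positions are those of the files with 1 added to the start, since 7961 of 22088 genes found by symbol then begin at a GENCODE transcript start, and 857 without that step. A complete MANE 3' UTR was found for 85.9% of the genes tested. Alternatives covered the pseudocount, the filter, 3 scalings, an FDR of 0.01, the variance model, a replicate block and each sample left out.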

Additional observations from a re-analysis of the deposited data

How the results depend on the processing

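ZFP36 and BTG1 kept their calls under all 17 alternatives. Of the 170 log2 fold changes of members recomputed, 155 kept their direction and their call, which needs the fold and the FDR together. The alternatives for the filter, the FDR, the variance model and the replicate block left each member's fold change as it was. Direction could not change under those. The FDR alone was crossed by some of the 155, as by TOB1 without the first BCT sample (limma, adjusted p = 0.0085). ZFP36L2 crossed it with equal sums without MIR6087 (limma, adjusted p = 0.373). Leaving out each sample in turn gave 2.1032 to 2.32 for ZFP36 and 0.86 to 0.94 for BTG1, close to the fold threshold. The scaling mattered most. With samples rescaled to equal FPKM sums, 6282 genes were called, 5614 higher and 668 lower, against 1764 and 2263 as deposited. The share of lower calls was then 10.6% instead of 56.2%, and 5 members were called higher, with ZFP36L1 at 1.10, BTG3 at 1.17 and TOB2 at 1.18. ZFP36L2 (0.31), ELAVL1 (0.19), TOB1 (0.65) and CNOT7 (0.76) changed sign, and 64 list genes were called higher and 2 lower, against 30 and 8. With equal sums without MIR6087, 3370 genes were called higher and 1208 lower, a share of lower calls of 26.4%, with 4 list genes called lower, and TOB1 (0.27) and CNOT7 (0.37) changed sign. With quantile normalization TOB1 (0.051) and CNOT7 (0.15) changed sign, and 1 poly(A) binding gene was called lower instead of 2. Which scaling is right was not tested. With no filter on low values 2657 genes were called higher, and with a mean of at least 5 FPKM 1150, as the numbers of genes tested were 21543 and 9319. Of the other 3' UTR binding regulators, 0 were called higher at a mean of at least 5 FPKM and 1 with a pseudocount of 1. Leaving out each sample gave -0.037 to 0.079 for CNOT1 and -0.024 to 0.0090 for CNOT7, so neither sign held in every case.

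A fit with a replicate block called 4033 genes, 1767 higher and 2266 lower, with 2 members and 30 list genes higher. No call of a member changed. The deviations of samples that share a number correlated at 0.033 to 0.116 across genes, with a mean of 0.061. Those of samples with different numbers correlated at -0.115 to 0.074, with a mean of -0.031. The ranges overlapped, and the numbers were not taken as pairs. FPKM without counts limits precision for low genes such as ZC3H12A, and no interval for counting error could be given.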

Other observations

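Across the genes tested, the heptamer TATTTAT was more common in the 3' UTRs of genes called higher than in those of genes called lower. It was present in 45.4% of 1483 genes called higher, in 26.9% of 1977 genes called lower and in 36.7% of 7479 genes that were not called, with median 3' UTR lengths of 1421, 1054 and 1373 bases. Among the 2420 genes with 3' UTRs of 1000 to 2000 bases, where the median lengths were 1441, 1442 and 1444, the shares were 48.2%, 30.5% and 32.6%. ZFP36L1, with 3 heptamers in 1871 bases, and ZFP36L2, with 3 in 1917, fall in this range of lengths and had log2 fold changes of opposite sign with the deposited scaling, 0.33 and -0.46, although that of ZFP36L2 was 0.31 with equal FPKM sums.

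Over genes with a complete 3' UTR, the median log2 fold change was -0.13 for those without a heptamer, 0.042 for those with 1, 0.13 for those with 2 and 0.23 for those with 3 or more, over 6989, 2245, 924 and 781 genes. In 3' UTRs of 1000 to 2000 bases these medians were -0.12, 0.070, 0.11 and 0.17, over 1588, 575, 180 and 77 genes. The median share of A and T in the 3' UTR was 55.3%, 61.8%, 65.4% and 64.8% in the same 4 classes, so base composition moved with the number of heptamers, and its part in the pattern was not tested. These shares and medians are descriptions, chosen after the data were seen.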
